A study of Medicago ruthenica with 9 samples.

Results

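The genes described here are the pseudo-response regulators of the leaf transcriptome of *Medicago ruthenica*, a perennial forage legume. They were taken from a de novo assembly of 52457 unigenes by their annotation, as unigenes whose SwissProt symbol starts with APRR or whose protein description names a response regulator-like APRR, and which reached 1 TPM (a length-corrected abundance, scaled to a fixed total per library) in at least 3 of the 9 libraries. The annotation matched 14 unigenes, and 13 of them were among the 44538 unigenes that reached that level. The remaining one, DN24713_c0_g2, a fragment of 387 bp described as APRR2 isoform X4, was listed at 0 in 8 libraries and at 7.49 TPM in RW 2. The rule uses the annotation and that minimum level, and no difference between groups.

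Pseudo-response regulators are transcriptional repressors of the plant circadian clock. They carry a receiver domain that lacks the phosphate-accepting residue of true response regulators, and most of them bind DNA through a C-terminal CCT domain. In Arabidopsis the family members PRR9, PRR7, PRR5, PRR3 and APRR1 (also called TOC1) are transcribed in sequence from morning to evening, and they repress the morning MYB genes CCA1 and LHY, which in turn repress the evening genes. APRR2 carries a receiver domain with a Myb-like DNA-binding domain in place of CCT, and it is known from tomato and pepper for its effect on fruit pigmentation and not as a core clock component.

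Leaves were collected from 3 groups of 3 libraries each, from seedlings 4 weeks old at the start and kept in 16 h of light and 8 h of dark. Control plants (CK) were watered every 3 days at over 80% relative soil moisture, drought-stressed plants (DS) went 15 days without water to a soil moisture of 20%, and rewatered plants (RW) shared that drought and were sampled 2 days after the pots were soaked again. CK and DS were harvested on day 15 of the treatment and RW afterwards, and the hour of harvest is not given in the sources used here, so a difference in the time of sampling and the treatment cannot be told apart for genes that cycle over the day. The plants grew 8 to a pot, and separate plants or pots for the biological replicates are not given, so the p-values speak only of how far these libraries scatter.

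TPM keeps no sequencing depth, and the summed TPM was between 994748 and 996266 per library. RW 2 stood apart from the other libraries, with 3618 unigenes at 5 TPM or more that were under 0.5 TPM in the other 8, making 5.23% of its TPM, so results are also given without it. Across all tested unigenes the median log2 fold change was −0.19 for DS vs. CK, −0.17 against RW, and −0.02 for RW vs. CK. After median-of-ratios scaling these medians were −0.05, −0.06 and 0.01. The green leaf markers summed to between 66017 and 90150 TPM in CK, 31095 and 88239 in DS, and 56099 and 78756 in RW over 30 unigenes, none of them at 0 in every library. The xylem and secondary wall markers (49 unigenes, none at 0 throughout) were lower in DS than in CK, at 67.9 to 433 against 696 to 2248 summed TPM. In RW they were at 299 to 960, which overlapped with both. In DS vs. CK, 17 of 47 tested ones were called lower, against 2.57% of all tested unigenes. The dividing-cell markers (209 unigenes) overlapped between groups, at 6005 to 6486 in CK, 5320 to 6524 in DS and 5138 to 6714 in RW. The part of a changed leaf composition in the results below was not tested. In these bulk samples, fewer cells of a type and less RNA per cell cannot be told apart.

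The 13 members fell into 4 groups by their symbols. APRR7 and PRR37 each had 1 unigene, APRR5 and APRR9 together had 4 counting one without a symbol that is described as APRR5, APRR1 had 4, and APRR2 had 3. Their lengths ran from 698 to 3810 bp. A receiver domain (Pfam Response_reg) was annotated in 10 of the 13, out of 26 tested unigenes with that domain in the whole table. Of the remaining members, APRR1 DN25585_c0_g1 was annotated with a CCT domain, APRR2 DN25307_c0_g1 with a Myb DNA-binding domain, and DN24677_c0_g4 with none. The annotation used here held at most 1 Pfam domain per member, so it does not show which other domains a member has. The symbol and the protein description gave different family numbers for 4 members, among them DN26257_c2_g1, with the symbol APRR7 and the description APRR3, and DN22738_c0_g1, with the symbol APRR5 and the description APRR9, so the numbers below name the closest SwissProt entry and not an established orthologue. KEGG placed 11 of the 13 in the plant circadian rhythm pathway, all but APRR2 DN25204_c1_g1 and DN25307_c0_g1.

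The family divided into unigenes that were several-fold lower in drought and unigenes whose levels in drought overlapped with the control. In DS vs. CK, 5 of the 13 members were called lower and none higher (limma, Benjamini-Hochberg adjusted p under 0.05 over all tested unigenes and a log2 fold change beyond 1), where 2.57% of all tested unigenes were called lower. In DS vs. RW, 5 of 13 were lower, the same 5 unigenes, against 1.79% of all tested unigenes. Both comparisons share the DS libraries. The 5 were APRR7, PRR37, APRR5 DN22738_c0_g1 and APRR1 DN17858_c0_g1 and DN25585_c1_g2. As a description, every DS library lay below every CK library (18.1% of all tested unigenes) and below every RW library (15.7%) for these 5 and for the other APRR1 unigenes, which makes 7 of 13. The 4 APRR1 unigenes among the 7, 2 of them called, may be parts of fewer genes, so these counts need not be of separate genes. One of the 7, APRR1 DN25585_c0_g1, reached the minimum level only through CK and RW and had to be lower in DS, and without it the count is 6 of 12. In RW vs. CK, 0 of 13 were called by limma and 0 reached an unadjusted p under 0.05, where 1 of 44538 unigenes (0.00225%) was called and 2895 had an unadjusted p under 0.05. The median log2 fold change over the 13 was −1.26 in DS vs. CK, −1.30 in DS vs. RW and 0.05 in RW vs. CK, and without DN25585_c0_g1 it was −0.70, −0.85 and 0.02. The values form separate blocks, so the median lies at the edge of one of them and stands for no typical member.

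The count in DS vs. CK depended on single libraries. It was 3 when CK 1, CK 2, CK 3 or DS 2 was left out, and 7 when RW 2 was. In DS vs. RW it was 3 without DS 2 and 5 without RW 2. PRR37 and APRR5 DN22738_c0_g1 were called lower in both comparisons with any of the 9 libraries left out.

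**Figure D1:**
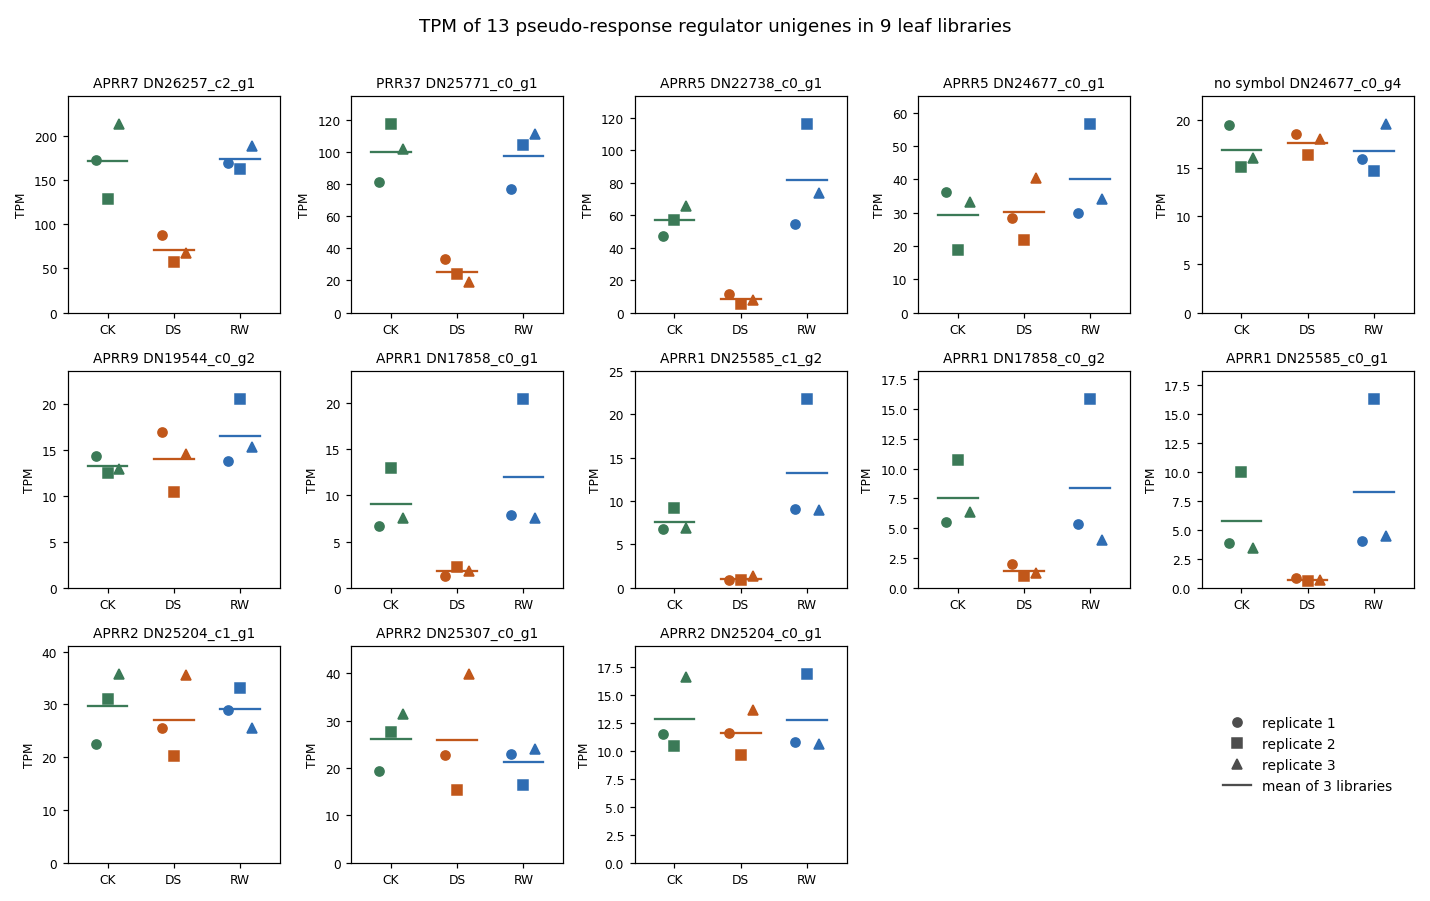
TPM (vertical axis, from 0, each panel with its own scale) of the 13 unigenes in CK, DS and RW, with 1 point for each of the 9 libraries and a line at the mean of 3. The DS points lie under all CK and RW points in 7 panels (APRR7, PRR37, APRR5 DN22738_c0_g1 and the 4 APRR1 unigenes) and among them in the other 6.

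APRR7 and PRR37 were the most abundant members by their CK and RW means and were both lower in drought. In Arabidopsis, PRR7 acts in the morning and early day and represses CCA1 and LHY, and PRR37 is the name of the related rice and barley genes that set flowering time by day length. APRR7 DN26257_c2_g1 (3810 bp, the longest member) was at 173.05, 128.38 and 213.99 TPM in CK 1 to 3, at 88.41, 57.08 and 67.10 TPM in DS, and at 170.01, 162.70 and 188.91 TPM in RW. All DS libraries were below the lowest CK library, and the RW libraries lay inside the CK range. The means were 172 ± 42.8 TPM in CK, 70.9 ± 16.0 in DS and 174 ± 13.5 in RW (SD, n = 3), and CK was 2.42 times and RW 2.45 times DS. The log2 fold change was −1.26 (SE 0.24, limma adjusted p = 0.0178) in DS vs. CK and −1.30 (SE 0.24, adjusted p = 0.0166) in DS vs. RW, the smallest of the called changes. It did not pass in DS vs. CK without CK 1 (−1.24, limma adjusted p = 0.0519), CK 3 (−1.09, adjusted p = 0.0724) or DS 2 (−1.12, adjusted p = 0.0662), nor in DS vs. RW without DS 2 (−1.16, adjusted p = 0.0620), RW 1 (−1.32, adjusted p = 0.0530) or RW 3 (−1.24, adjusted p = 0.0711).

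PRR37 DN25771_c0_g1 (3267 bp, described as APRR7) was at 81.11, 117.45 and 101.76 TPM in CK, at 33.61, 23.79 and 19.07 TPM in DS, and at 77.18, 104.42 and 111.14 TPM in RW. The highest DS library was well below the lowest CK or RW library. The means were 100.1 ± 18.2, 25.5 ± 7.42 and 97.6 ± 18.0 TPM (SD, n = 3). DS was lower than CK, at −1.95 on the log2 scale (SE 0.25, limma adjusted p = 0.00272) and lower than RW, at −1.92 (SE 0.25, adjusted p = 0.00328), and RW differed from CK by −0.04 (95% interval −0.61 to 0.53). Within each library, the log2 ratio of PRR37 to APRR7 averaged −0.76 ± 0.55 in CK, −1.45 ± 0.28 in DS and −0.84 ± 0.26 in RW (SD, n = 3). It was lower in every DS library than in any CK or RW library. The exact permutation p was 0.1 in both comparisons (two-sided), the smallest value that 3 libraries against 3 can give. This test could therefore not decide whether the fold of PRR37 was larger than that of APRR7.

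The APRR5 and APRR9 group held the contrast between paralogous unigenes. PRR5 and PRR9 act in Arabidopsis on either side of PRR7 in the daily sequence, and PRR5 also carries TOC1 into the nucleus. APRR5 DN22738_c0_g1 (2406 bp, described as APRR9 isoform X1) was at 47.40, 57.25 and 65.83 TPM in CK, at 11.53, 5.33 and 7.98 TPM in DS, and at 54.63, 116.30 and 74.02 TPM in RW. Every DS library was far below every CK and RW library, and RW 2 was the highest of the 9. The means were 56.8 ± 9.22 TPM in CK, 8.28 ± 3.11 in DS and 81.7 ± 31.5 in RW (SD, n = 3), so CK was 6.86 times and RW 9.86 times DS. The log2 fold change was −2.68 (SE 0.32, limma adjusted p = 0.00188) in DS vs. CK, where no other member had a larger one, and −3.14 (SE 0.32, adjusted p = 0.000855) in DS vs. RW. Without RW 2 the latter was −2.85 (limma adjusted p = 0.00306). RW and CK differed by 0.46 (95% interval −0.27 to 1.19, limma adjusted p = 0.855), and without RW 2 by 0.17.

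APRR5 DN24677_c0_g1 (1122 bp, described as a response regulator receiver with CCT) was at 36.15, 18.70 and 33.12 TPM in CK, at 28.29, 21.74 and 40.56 TPM in DS, and at 29.84, 56.64 and 33.97 TPM in RW. The groups overlapped, with replicate 2 the lowest in CK and DS and the highest in RW. The log2 fold change was 0.05 in DS vs. CK (95% interval −0.71 to 0.81, limma adjusted p = 0.956) and −0.39 in DS vs. RW (−1.15 to 0.37, adjusted p = 0.600). These intervals do not reach the change of DN22738_c0_g1, but they are too wide to show that DN24677_c0_g1 was level.

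The ratio of these paralogous unigenes, which share the SwissProt symbol APRR5, turned over in drought. KEGG assigns both to the orthologue group pseudo-response regulator 5. That group also holds APRR9 DN19544_c0_g2, DN24677_c0_g4 and APRR2 DN25204_c0_g1, so it does not mark out this pair. Since DN22738_c0_g1 is described as APRR9 isoform X1, whether the pair is of the same gene type was not settled. The log2 ratio of DN24677_c0_g1 to DN22738_c0_g1 was −0.38, −1.56 and −0.97 in CK 1 to 3, 1.23, 1.84 and 2.21 in DS, and −0.85, −1.03 and −1.10 in RW. DN22738_c0_g1 was thus the more abundant APRR5 unigene in all 6 CK and RW libraries and the less abundant in all 3 DS libraries. The ratio was higher in DS than in CK by 2.73 (SE 0.35, 95% interval 1.94 to 3.52, limma adjusted p = 0.00323) and higher than in RW by 2.75 (SE 0.35, 95% interval 1.96 to 3.54, adjusted p = 0.00403), tested in a fit over all 7602 pairs of tested unigenes that share a SwissProt symbol. In that fit 6.80% of the pairs were called in DS vs. CK and 5.20% in DS vs. RW, and 0 in RW vs. CK. The pair passed in all 12 alternatives run for it, leaving out each of the 9 libraries among them, with a difference of 2.28 to 3.03 in DS vs. CK and 2.32 to 3.02 in DS vs. RW. Of the 6 pairs among the members, it was the only one called.

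The other members of this group, like DN24677_c0_g1, were not called in any comparison. DN24677_c0_g4 (1152 bp, no symbol, described as APRR5) was at 19.46, 15.14 and 16.06 TPM in CK, at 18.52, 16.38 and 18.07 TPM in DS, and at 15.97, 14.70 and 19.59 TPM in RW. APRR9 DN19544_c0_g2 (1378 bp, described as APRR5) was at 14.32, 12.45 and 12.92 TPM in CK, at 16.96, 10.40 and 14.51 TPM in DS, and at 13.81, 20.50 and 15.27 TPM in RW. All groups overlapped for both unigenes. Their log2 fold changes in DS vs. CK were 0.07 (95% interval −0.37 to 0.50) and 0.05 (−0.48 to 0.58), intervals that leave out a fall by the minimum of 1 that a call required. PRR95 DN24677_c0_g3, which the selection rule did not take because its description lacks the APRR name, was also without a call, at 31.0 ± 10.8 TPM in CK, 38.0 ± 9.58 in DS and 44.3 ± 9.58 in RW (SD, n = 3; log2 fold change in DS vs. CK 0.32, limma adjusted p = 0.597). DN24677_c0_g1, g3 and g4 belong to the same Trinity cluster, whose transcripts share sequence, so reads could have been divided between them and they do not count as 3 independent observations.

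As a description, DN22738_c0_g1 was set against APRR9, DN24677_c0_g4 and PRR95 by the log2 ratio within a library. These pairs were not among the planned ones, which share a symbol. Their ratios have the same numerator over unigenes without a call, so they restate its fall and are not separate observations. Its ratio to APRR9 DN19544_c0_g2 averaged 2.01 ± 0.31 in CK, −0.72 ± 0.18 in DS and 2.19 ± 0.27 in RW, its ratio to DN24677_c0_g4 averaged 1.69 ± 0.39, −1.06 ± 0.41 and 2.16 ± 0.65, and its ratio to PRR95 averaged 0.90 ± 0.65, −2.10 ± 0.53 and 0.82 ± 0.37 (SD, n = 3). In each case the 3 DS values lay below all CK and all RW values, with the smallest exact permutation p that 3 against 3 libraries allow (0.1, two-sided). These ratios, with that of PRR37 to APRR7, made 4 pairs compared in this way, and none can pass a threshold of 0.05.

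**Figure D2:**
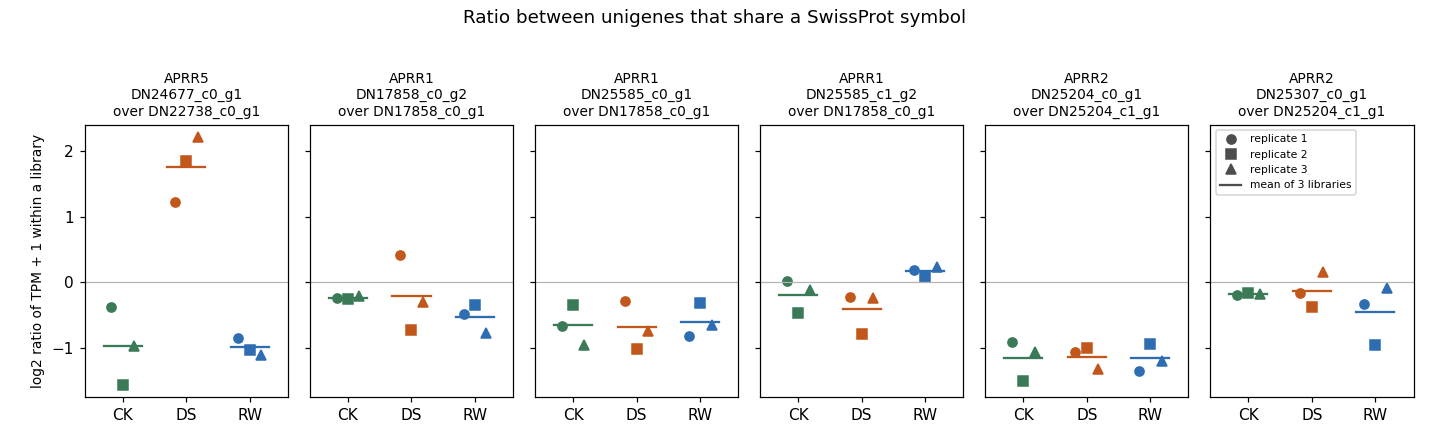
Log2 ratio of TPM + 1 (vertical axis, 1 scale for all panels) between unigenes with the same SwissProt symbol in CK, DS and RW, with 1 point per library and a line at the mean of 3. The APRR5 ratio lies between −1.56 and −0.38 in CK and between 1.23 and 2.21 in DS, while the ranges of DS and CK overlap for the APRR1 and APRR2 pairs.

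APRR1 was the rarest class, and all of its unigenes were lower in every drought library. APRR1 (TOC1) is the evening member of the family and represses the morning genes at night. APRR1 DN25585_c1_g2 (2519 bp) was at 6.75, 9.14 and 6.83 TPM in CK, at 0.93, 0.89 and 1.34 TPM in DS, and at 9.04, 21.76 and 9.01 TPM in RW. The log2 fold change was −2.06 in DS vs. CK (SE 0.36, limma adjusted p = 0.0126) and −2.69 in DS vs. RW (SE 0.36, adjusted p = 0.00339). In DS vs. CK it did not pass without CK 2 (−1.93, limma adjusted p = 0.0517), and in DS vs. RW it was −2.29 without RW 2 (adjusted p = 0.00606).

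APRR1 DN17858_c0_g1 (1183 bp) was at 6.67, 13.02 and 7.54 TPM in CK, at 1.25, 2.25 and 1.76 TPM in DS, and at 7.86, 20.44 and 7.55 TPM in RW. It was called lower in DS vs. CK (−1.84, SE 0.41, limma adjusted p = 0.0335) and in DS vs. RW (−2.11, SE 0.41, adjusted p = 0.0215). The first call was lost without any one of the CK or DS libraries, leaving a fold change of −2.01, −1.57 and −1.93 when CK 1, CK 2 or CK 3 was left out and of −1.70, −1.96 and −1.85 when DS 1, DS 2 or DS 3 was, and also after median-of-ratios scaling (−1.69, limma adjusted p = 0.0536) and quantile normalization (−1.66, adjusted p = 0.0508) and with a pseudocount of 5 TPM (−1.04, adjusted p = 0.0809). The second was lost without DS 1 (−1.97), DS 2 (−2.24) or DS 3 (−2.12), and in a fit of the 6 DS and RW libraries alone (−2.11, limma adjusted p = 0.0530).

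The shorter APRR1 unigenes showed folds of like size that did not pass the adjusted test. DN17858_c0_g2 (698 bp) was at 5.49, 10.72 and 6.36 TPM in CK, at 1.99, 0.96 and 1.25 TPM in DS, and at 5.33, 15.83 and 4.00 TPM in RW (DS vs. CK −1.80, SE 0.47, limma adjusted p = 0.0584). DN25585_c0_g1 (915 bp) was at 3.86, 10.01 and 3.41 TPM in CK, at 0.85, 0.60 and 0.65 TPM in DS, and at 4.00, 16.26 and 4.43 TPM in RW (DS vs. CK −1.86, SE 0.53, limma adjusted p = 0.0784). DN25585_c0_g1 reached the minimum level through CK and RW only. In DS vs. RW the changes were −1.78 (limma adjusted p = 0.0711) and −2.19 (adjusted p = 0.0527). Without RW 2, which enters the shared estimate of the spread, both passed in DS vs. CK (adjusted p = 0.0210 and 0.0334).

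The 4 APRR1 unigenes had similar profiles across the libraries. CK 2 and RW 2 were the highest of their groups for each of them, and their summed TPM was 22.77, 42.89 and 24.14 in CK, 5.02, 4.70 and 5 in DS, and 26.23, 74.29 and 24.99 in RW. DS thus varied by less than 1 TPM while CK and RW each had 1 high library. Pearson's r of log2(TPM + 1) between APRR1 unigenes over the 9 libraries was between 0.93 and 0.97, given as a description since the libraries share their groups. Their ratios to DN17858_c0_g1 differed between DS and CK by −0.22 (95% interval −0.74 to 0.30) for DN25585_c1_g2, 0.03 (−0.63 to 0.70) for DN17858_c0_g2 and −0.03 (−0.66 to 0.60) for DN25585_c0_g1, none of them called. Between DS and RW the ratio of DN25585_c1_g2 to DN17858_c0_g1 differed by −0.58 (95% interval −1.10 to −0.06, limma adjusted p = 0.201), with all DS values (−0.78 to −0.22) below all RW values (0.09 to 0.23), and it was not called either. Whether these unigenes are separate genes, alleles or parts of 1 transcript cannot be told from the table. Summed by symbol, APRR1 had a log2 fold change of −2.33 in DS vs. CK (limma adjusted p = 0.0125) and −2.67 in DS vs. RW (adjusted p = 0.00640). The same sum for APRR5, which joins the responding and the other unigene, was −1.17 and not called in DS vs. CK (adjusted p = 0.0522).

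The APRR2 unigenes overlapped between all groups. DN25204_c1_g1 (2553 bp) was at 22.52, 31.12 and 35.72 TPM in CK, at 25.45, 20.26 and 35.58 TPM in DS, and at 29.03, 33.07 and 25.59 TPM in RW. DN25307_c0_g1 (1147 bp) was at 19.46, 27.62 and 31.32 TPM in CK, at 22.71, 15.38 and 39.78 TPM in DS, and at 23.00, 16.49 and 24.07 TPM in RW. DN25204_c0_g1 (951 bp) was at 11.52, 10.39 and 16.62 TPM in CK, at 11.61, 9.63 and 13.62 TPM in DS, and at 10.77, 16.84 and 10.60 TPM in RW. Library DS 3 was the highest and DS 2 the lowest of the DS libraries for all of them. The log2 fold changes in DS vs. CK were −0.14 (95% interval −0.71 to 0.42), −0.09 (−0.84 to 0.67) and −0.12 (−0.71 to 0.47), close to the median of all tested unigenes, and their pairs differed between DS and CK by 0.06 and 0.02 on the log2 scale. Over the 6 members without separated groups and 19 alternative settings that kept unigenes apart, the log2 fold change in DS vs. CK lay between −0.44 and 0.26, crossing 0, and none was called.

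**Figure D3:**
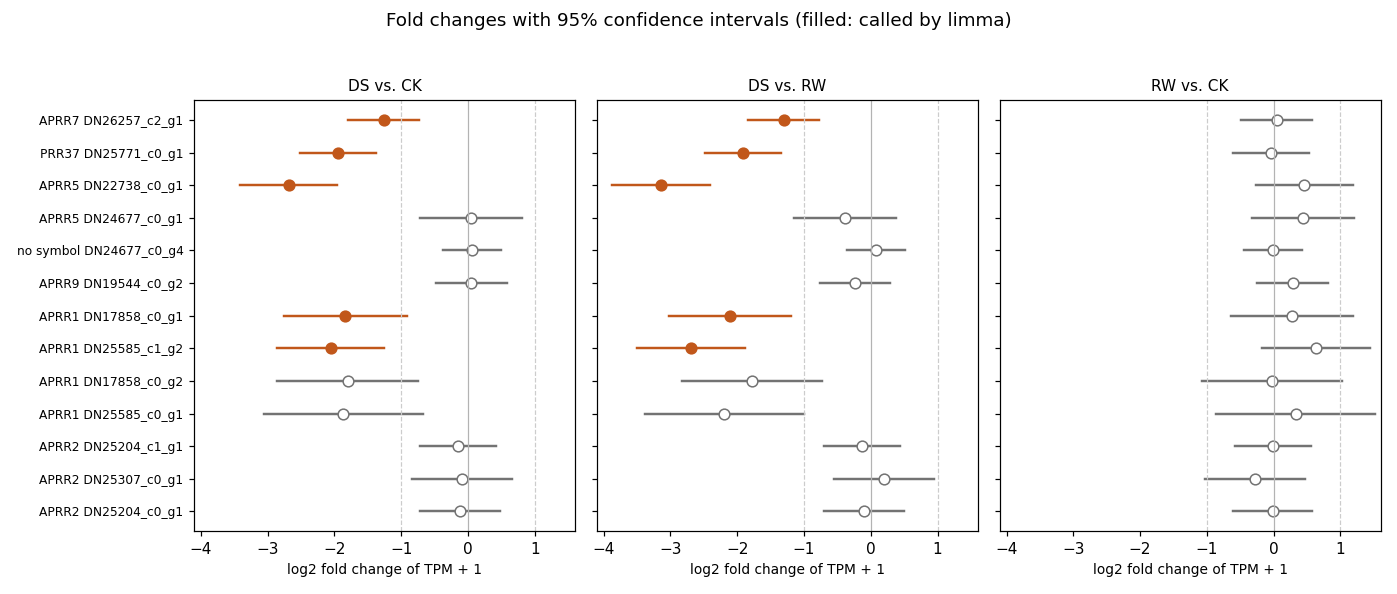
Log2 fold change of TPM + 1 (horizontal axis) with its 95% confidence interval from limma for the 13 unigenes, with a panel each for DS vs. CK, DS against RW and RW against CK, where filled points were called and dashed lines mark a log2 fold change of 1 in either direction. The 5 called unigenes lie between −2.68 and −1.26 in DS vs. CK, and no point is filled in RW vs. CK.

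The total of the family differed between DS and the other groups, and so did part of its makeup. The 13 unigenes summed to 447.76, 461.39 and 551.48 TPM in CK, 262.11, 184.69 and 261.27 TPM in DS, and 450.47, 615.95 and 528.15 TPM in RW. The means were 487 ± 56.4, 236 ± 44.5 and 532 ± 82.8 TPM (SD, n = 3), with every DS library below every CK and RW library. APRR7 and PRR37 made 55.8% of the sum in CK, 41.1% in DS and 51.7% in RW. In RW 2 that share was 43.4%, under DS 1 (46.6%) and DS 2 (43.8%), so DS and RW overlapped. APRR1 made 6.25%, 2.12% and 7.54%, and APRR2, whose level overlapped, made 14.0%, 27.1% and 12.04%. For APRR1 and APRR2 the DS shares lay apart from all CK and RW shares. The APRR5 and APRR9 group made 23.9%, 29.6% and 28.7%, while the unigene that led it in CK and RW was no longer the leading one in DS. The DS shares of this group (28.7% to 31.0%) lay within its RW range (25.4% to 33.8%).

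In the order of the CK means, APRR7 came first, followed by PRR37 and APRR5 DN22738_c0_g1, and APRR1 DN25585_c0_g1 came last at 5.76 ± 3.69 TPM. The CK libraries of APRR7 lay above those of PRR37, and these above those of DN22738_c0_g1, without overlap. From APRR2 DN25204_c1_g1 (29.8 ± 6.70 TPM) to APRR2 DN25307_c0_g1 (26.1 ± 6.07 TPM), with APRR5 DN24677_c0_g1 (29.3 ± 9.32 TPM) between them, neighbours did not differ beyond their spread, and the same held among the APRR1 unigenes. In DS, APRR7 was still first at 70.9 ± 16.0 TPM. PRR37, at 25.5 ± 7.42 TPM, came after APRR5 DN24677_c0_g1 (30.2 ± 9.55 TPM), APRR2 DN25204_c1_g1 (27.1 ± 7.79 TPM) and APRR2 DN25307_c0_g1 (26.0 ± 12.5 TPM), from which it did not differ beyond the spread, and DN22738_c0_g1, at 8.28 ± 3.11 TPM, had dropped below all the APRR2, APRR9 and other APRR5 unigenes.

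Over the 9 libraries, Pearson's r between members of the 7 lowered unigenes was between 0.70 and 0.97 (median 0.92). It was between −0.44 and 0.77 (median 0.24) among the other 6, and between −0.54 and 0.42 across the sets. The points are the same 9 libraries in 3 groups, so these values restate the group differences and are a description. Among 17825 tested unigenes with a protein description and a mean of at least 5 TPM, the closest pattern to PRR37 after PDCD4 DN20767_c0_g1 (r = 0.994, 9 libraries) was that of ADO3 DN21252_c0_g1 (r = 0.992), followed by XERICO DN15053_c0_g3 (r = 0.989). PDCD4 is a symbol only, since DN20767_c0_g1 is described as an uncharacterized protein. The closest to APRR5 DN22738_c0_g1 were an unsymboled GRP1A-like glycine-rich RNA-binding protein DN17754_c1_g1 (r = 0.992), PETH DN22875_c1_g1 (r = 0.990) and a KUA1-like transcription factor DN21213_c0_g1 (r = 0.986). APRR7 was most like an uncharacterized protein DN19532_c1_g2 (r = 0.991), RMA1H1 DN15171_c0_g1 (r = 0.987) and a CBL-interacting protein kinase 23 DN17514_c0_g2 (r = 0.985). For the called APRR1 unigenes DN25585_c1_g2 and DN17858_c0_g1, ELO2 DN20914_c0_g1 (r = 0.996 and 0.980) and atpI DN19570_c0_g1 (r = 0.993 and 0.982) were the nearest, with GDU3 DN14743_c0_g1 (r = 0.985) and FES1 DN15467_c0_g1 (r = 0.975) next. The unigene with the symbol atpI is also described as an uncharacterized protein.

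The clock genes outside the family moved in both directions in drought. Of 39 tested unigenes in 5 lists of other clock and clock output genes, 9 were called higher (2.39% of all tested unigenes), 6 lower (2.57%) and 24 not called in DS vs. CK, and 0 were called by limma in RW vs. CK. The morning MYBs, which the pseudo-response regulators repress in Arabidopsis, had 4 of 9 called higher and none lower in DS vs. CK, and 2 of 9 higher in DS vs. RW (2.15% of all tested unigenes). The 2 were LHY and the REVEILLE 8 unigene, and the other 2 of the 4 come from 1 Trinity cluster, DN24728_c2, in which g2 is a fragment of 274 bp. LHY DN25317_c1_g1 was at 41.02, 24.63 and 33.24 TPM in CK, at 322.47, 312.93 and 431.54 TPM in DS, and at 56.89, 55.89 and 54.94 TPM in RW, and it was higher in DS than in CK by 3.41 on the log2 scale (SE 0.22, limma adjusted p = 5.3e-05). A unigene described as REVEILLE 8, DN20351_c0_g1, a related MYB, rose from 32.4 ± 10.2 to 194 ± 24.2 TPM (2.59, limma adjusted p = 0.000486), and RVE7 DN24728_c2_g1 rose by 1.39 (adjusted p = 0.0214) but was not called in DS vs. RW (0.82, adjusted p = 0.148). LHY in RW lay above its CK range but was not called (0.77, limma adjusted p = 0.714).

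The evening complex binds and represses PRR promoters in Arabidopsis. Its list here was matched by name and also held ELF4-LIKE unigenes. In DS vs. CK, 4 of the 6 in the list were called lower and none higher, against 2.57% of all tested unigenes called lower. In DS vs. RW, 3 of 6 were called lower (1.79%). ELF4 DN15036_c0_g1 fell from 71.8 ± 30.1 to 7.39 ± 2.98 TPM and was at 58.1 ± 21.3 TPM in RW (SD, n = 3, log2 fold change −3.09 in DS vs. CK, limma adjusted p = 0.00311), and ELF3 DN21601_c0_g1 fell from 18.3 ± 1.25 to 5.03 ± 0.904 TPM (−1.69, adjusted p = 0.00198). DN23704_c0_g1, with the symbol LUX and the description MYBC1, fell by 1.80 on the log2 scale (limma adjusted p = 0.00495). Also called was EFL4 DN12626_c0_g1, described as ELF4-LIKE 4 (−1.57, limma adjusted p = 0.0255). Here too paralogous unigenes differed. ELF3 DN17691_c0_g3 was at 8.92, 9.07 and 9.03 TPM in CK and at 11.90, 8.73 and 9.06 TPM in DS, and its log2 ratio to DN21601_c0_g1 was higher in DS by 1.80 (SE 0.20, limma adjusted p = 0.00164). The log2 ratio of EFL4 DN12626_c0_g1 to EFL4 DN17596_c2_g1 was lower in DS by 1.66 (SE 0.34, adjusted p = 0.0228). Of 9 such pairs within the clock lists, these and a CDF3 pair were called in DS vs. CK, with the same background of 6.80%. In DS vs. RW the ELF3 and CDF3 pairs were called too (5.20% of all pairs). The EFL4 pair was not called there (−1.31, limma adjusted p = 0.0619).

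ADO3 DN21252_c0_g1, the FKF1-type blue-light receptor that removes CDF proteins, fell from 29.4 ± 10.0 to 2.80 ± 2.05 TPM (log2 fold change −3.07, limma adjusted p = 0.00273), the largest fall in the list of GIGANTEA and ADAGIO genes, where GI DN25177_c1_g1 (−0.93, adjusted p = 0.0849) and ADO1 DN23951_c0_g2 (−0.22, adjusted p = 0.583) were not called. In DS vs. RW, GI was called lower (−1.22, limma adjusted p = 0.0384), and each of its DS libraries lay below each CK and RW library. ADO1 is the ZEITLUPE-type protein that marks APRR1 and PRR5 for degradation. Of 15 CDF and PIF unigenes, the outputs that the family binds in Arabidopsis, 5 were called higher in DS vs. CK and none lower. Over all tested unigenes, 2.39% were called higher. In DS vs. RW the same 5 were called higher (2.15% of all tested unigenes) and none lower. All of the 5 were cyclic dof factors, among them CDF3 DN19182_c0_g1 (from 2.55 ± 0.673 to 21.8 ± 5.91 TPM, 2.67, limma adjusted p = 0.00101) and CDF2 DN19901_c0_g1 (from 0.547 ± 0.507 to 10.9 ± 1.83 TPM, 2.99, adjusted p = 0.00224). CDF1 DN21806_c1_g2 and DN21806_c1_g3, also among the 5, come from 1 Trinity cluster. CDF4 DN25981_c0_g2 went the other way without a call (from 3.32 ± 0.596 to 0.647 ± 0.258 TPM, −1.40, limma adjusted p = 0.0745). Of 6 other clock-associated unigenes, only a unigene described as TIME FOR COFFEE, DN25677_c0_g6, was called lower (−1.26, limma adjusted p = 0.0111). Over all tested unigenes, 2.57% were called lower in DS vs. CK.

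The canonical response regulators, which share the receiver domain but carry cytokinin signals, gave a comparison outside the clock. Of 17 tested, 2 were called lower in DS vs. CK (2.57% of all tested unigenes), ARR8 DN12157_c0_g1 (−1.38, limma adjusted p = 0.0286) and ARR4 DN17368_c0_g1 (−2.24, adjusted p = 0.0303), and none higher, with a median log2 fold change of −0.36 against −0.19 over all tested unigenes. In DS vs. RW, 1 was called higher and none lower. Among the pseudo-response regulators, the class medians in DS vs. CK were −1.61 for APRR7 and PRR37, −1.85 for APRR1, 0.05 for APRR5 and APRR9, and −0.12 for APRR2.

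**Figure D4:**
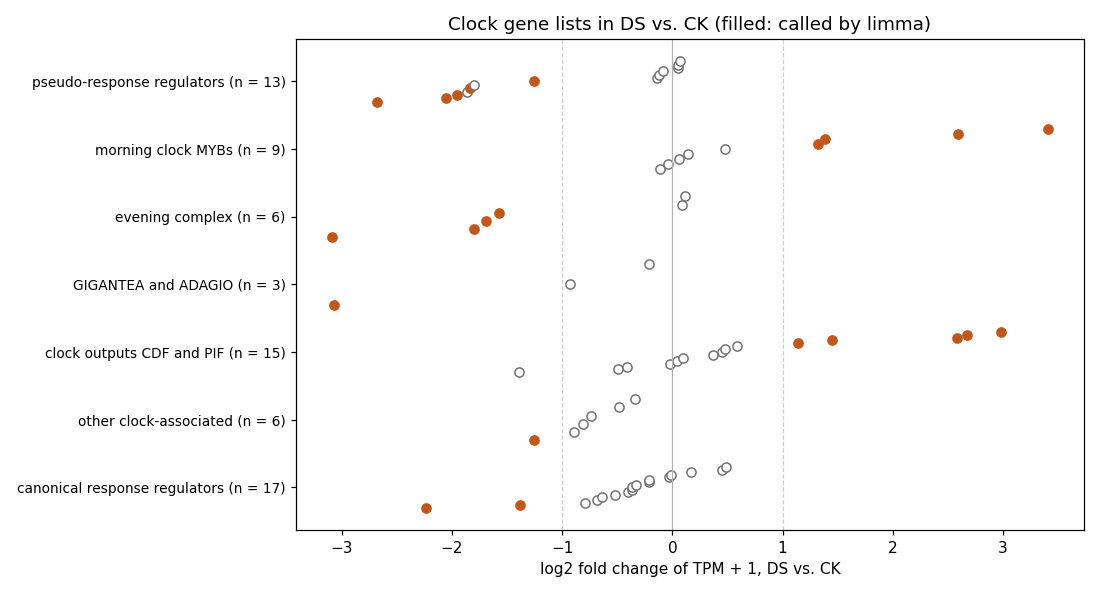
Log2 fold change of TPM + 1 in DS vs. CK (horizontal axis) for each tested unigene of 7 gene lists, 1 point per unigene, filled where limma called it, with dashed lines at 1 in either direction. Filled points lie to the left of 0 for the pseudo-response regulators (5 of 13) and the evening complex list (4 of 6). They lie to the right for the morning MYBs (4 of 9) and the list of CDF and PIF genes (5 of 15, all of them CDF).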

How the data were processed

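Leaf poly(A) RNA of 9 libraries (3 each of CK, DS and RW) was sequenced by the authors as paired-end Illumina reads. The methods describe trimming by Cutadapt and de novo assembly by Trinity, with the longest transcript of a cluster as its unigene. The authors deposited TPM values, for whose estimation their methods name Salmon. TPM corrects for length and scales each library to the same total, so the depth behind a value is unknown and counting intervals were not computed. HISAT2 2.0 and StringTie 1.3.0 also stand in the submitters' processing notes, their role not given, so which program gave the deposited values was not settled. No genome coordinates or sequences were used. Reads shared by similar unigenes could have been divided between them by the estimate.

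Unigenes that reached 1 TPM in 3 or more libraries were tested with limma 3.58.1 (statmod 1.5.0, R 4.3.3) on log2(TPM + 1), in 1 fit of 3 group means with trend and robust empirical Bayes. The study selected its genes with edgeR, whose input its methods do not state, while limma was used here because TPM is not a count. Adding 1 TPM understates the change of low unigenes such as APRR1. A call required an adjusted p (Benjamini-Hochberg, two-sided) under 0.05 over all tested unigenes and a log2 fold change beyond 1. Within each SwissProt symbol, each unigene was set against the most abundant by the log2 ratio per library, in a fit over all such pairs. The steps were tested on simulated data.

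All members were named, with the 3 unigenes of the highest Pearson's r for each called member and, for other lists, at most 3 called unigenes with the smallest p. A second ELF3 unigene, the EFL4 pair, the CDF1 unigenes, CDF4, GI, ADO1 and PRR95 were named after their values were seen. Members and lists were chosen with earlier results of these data known. Lists were matched by symbol or description, and 5 matches that are other proteins were left out. The alternatives tried were each library left out in turn, a block by replicate number, a fit of the 6 libraries compared, an unadjusted p, a call with no minimum fold, pseudocounts of 0.1 and 5 TPM, no filter or 5 TPM, median-of-ratios scaling, quantile normalization and TPM summed by symbol.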

Additional observations from a re-analysis of the deposited data

How the results depend on the processing

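With libraries left out in turn, the number of members called ranged from 3 to 7 in DS vs. CK and from 3 to 5 in DS vs. RW, from 0 to 0 in RW vs. CK, and the number of paralogue ratios called from 1 to 1 in both comparisons with DS. Summing TPM by symbol gave 3 calls in DS vs. CK, where several unigenes became 1 feature. No fold change of a called member turned its direction under any alternative. PRR37 was called in all 20 alternatives in both comparisons, and APRR5 DN22738_c0_g1 in 19 of 20 in DS vs. CK. APRR1 DN17858_c0_g1 was called in 11 of 20. A pseudocount of 0.1 TPM or an unadjusted p gave 7 calls in DS vs. CK, and a pseudocount of 5 TPM, median-of-ratios scaling and quantile normalization gave 4 each. The cause of these differences was not tested.

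The labels do not say whether the replicate numbers pair the samples. Deviations from the group means correlated at −0.09 to 0.06 for same-numbered libraries and at −0.08 to 0.09 for other numbers. No pairing was thus seen across all tested unigenes, which does not exclude it for some of them. With the replicate number as a block, 5 members were called in DS vs. CK, 6 in DS vs. RW and 0 in RW vs. CK, and 1 paralogue ratio in each comparison with DS. Only 12 of the 13 members were tested with a minimum of 5 TPM. The calls of the other clock genes were not recomputed under these alternatives. Low levels limit the APRR1 unigenes, which were near 1 TPM in DS.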
